A study of Homo sapiens with 3 samples.

Results

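MYCN, MYCNOS, DDX1 and NBAS are neighbours on the short arm of human chromosome 2, in the stretch around MYCN that is amplified in many neuroblastomas. The 4 gene IDs were taken by name from lists of RNA peaks bound by CSTF2tau, and they made up 4 of 13356 gene IDs and 207 of 202310 listed peaks. The rule names the genes and uses no measured value, though they were proposed with earlier results of these data known. The strand of every peak was kept. The data are 1 group of 3 biological replicates of wild-type BE(2)-C cells, an established clonal neuroblastoma line that carries extra copies of MYCN. RNA was crosslinked to protein with ultraviolet light in living cells, partly digested, recovered with the A301-486A antibody against CSTF2tau and sequenced (sCLIP). The lists held 736059, 108434 and 387784 reads in peaks in replicates 1, 2 and 3. These totals are not the sequencing depth. Input RNA was not analysed here, so more CSTF2tau on each RNA and more RNA of a gene cannot be told apart, and copy number was not measured.

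CSTF2tau is the paralogue of CSTF2, the subunit of the cleavage stimulation factor that contacts GU-rich RNA beyond the cleavage site of a pre-mRNA. MYCN encodes a basic helix-loop-helix transcription factor that pairs with MAX and drives growth of neural crest progenitors and of high-risk neuroblastoma. MYCNOS is the antisense transcript that starts inside MYCN and runs the other way. DDX1 is a DEAD-box RNA helicase of the tRNA ligase complex, and NBAS is a subunit of the tether that receives Golgi vesicles at the endoplasmic reticulum and has a role in nonsense-mediated decay.

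All 4 genes had windows in the RefSeq promoter table. The opposed starts of MYCN and MYCNOS are shown because the reads of these genes separated by strand. RefSeq (GRCh38.p14) places both MYCNOS starts inside MYCN, 1135 and 1883 nt downstream of the MYCN start. The 250 bases before each start follow, 5′ to 3′ on the strand of the gene, with TGTGT and its reverse complement ACACA in capitals. They lie at chr2:15940300-15940549 on the plus strand, and at chr2:15941686-15941935 and chr2:15942434-15942683 on the minus strand.
MYCN: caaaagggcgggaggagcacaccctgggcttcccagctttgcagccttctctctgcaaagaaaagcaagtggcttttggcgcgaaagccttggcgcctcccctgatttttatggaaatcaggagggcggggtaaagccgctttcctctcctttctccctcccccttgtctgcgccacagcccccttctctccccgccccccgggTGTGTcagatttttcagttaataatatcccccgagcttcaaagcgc
MYCNOS, start nearer to that of MYCN: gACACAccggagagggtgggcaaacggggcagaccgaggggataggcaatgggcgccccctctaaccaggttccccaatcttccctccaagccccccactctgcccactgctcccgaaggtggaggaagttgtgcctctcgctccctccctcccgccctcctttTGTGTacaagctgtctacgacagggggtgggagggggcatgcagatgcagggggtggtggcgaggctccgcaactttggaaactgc
MYCNOS, start farther into MYCN: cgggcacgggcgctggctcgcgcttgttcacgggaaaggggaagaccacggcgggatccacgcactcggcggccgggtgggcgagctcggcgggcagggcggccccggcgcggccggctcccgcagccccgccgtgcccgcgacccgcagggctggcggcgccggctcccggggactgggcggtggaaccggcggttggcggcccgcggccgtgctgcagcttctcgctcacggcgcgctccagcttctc
TGTGT or ACACA occurred 1 time before the MYCN start, 2 times before the nearer MYCNOS start and 0 times before the farther one, and 34.0% of all 35116 such windows held at least 1 match on either strand. These windows are in another build than the peaks, which are in hg19, so no peak was placed on them and the matches are a description of the letters only.

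MYCN held by far the most reads of the 4 genes in replicates 1 and 3, and none in replicate 2. MYCN (ENSG00000134323) had 907 reads in 107 peaks in replicate 1, 0 reads in replicate 2, and 420 reads in 16 peaks in replicate 3. As a share of all listed reads this was 0.123% in replicate 1 (95% exact Clopper-Pearson interval 0.115 to 0.132%) and 0.108% in replicate 3 (0.0982 to 0.119%). The 0 of 108434 reads in replicate 2 has an exact interval that reaches 0.00340%, and 3 reads over the total would be 0.00277%. The mean share of replicates 1 and 3 would have given 126 reads there. Replicates 1 and 3 lay close together and replicate 2 lay far below both. The mean was 0.0772% ± 0.0673 (SD, n = 3), rank 154 of 13356 gene IDs, and 0.116% without replicate 2. Within replicates 1 and 3 MYCN ranked 78 and 73. The 107 peaks of replicate 1 were all under 20 nt wide, and whether their reads overlap in count is not stated in any source used here. Intervals and limits cover counting error only.

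MYCNOS was highest in the library that had no MYCN. MYCNOS (ENSG00000233718) had 49 reads in 3 peaks in replicate 1, 97 reads in 6 peaks in replicate 2 and 18 reads in 4 peaks in replicate 3. The shares were 0.00666% (0.00492 to 0.00880%), 0.0895% (0.0725 to 0.109%) and 0.00464% (0.00275 to 0.00734%). Replicate 2 was far above the other libraries in share and, though its list was the shortest, also had the most MYCNOS reads. The mean of 0.0336% ± 0.0484 (SD, n = 3) ranked 497 and rests on that library, with 0.00565% left without it. As shares of peaks in place of reads, the means were 0.0407% for MYCN and 0.0135% for MYCNOS.

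DDX1 and NBAS, the protein-coding genes on the side of MYCNOS, held fewer reads than MYCN in replicates 1 and 3. DDX1 (ENSG00000079785) had 77 reads in 12 peaks, 0 reads, and 12 reads in 4 peaks in replicates 1, 2 and 3, a mean share of 0.00452% ± 0.00537 (SD, n = 3; 0.00678% without replicate 2 and 0.00155% without replicate 1). The mean share of replicates 1 and 3 would have given 7.35 DDX1 reads in replicate 2, though only peaks of at least 3 reads are listed. NBAS (ENSG00000151779) had 66 reads in 17 peaks, 3 reads in 1 peak, and 142 reads in 37 peaks, a mean share of 0.0161% ± 0.0180, or 0.00587% without replicate 3. That mean was 0.00755% with the peaks at or under the median p-value of each list, and 0.00565% with peaks of at least 5 reads. DDX1 was highest in replicate 1 and NBAS in replicate 3. DDX1 ranked 4211 and NBAS 1309, while the median gene ID had 0.00195%.

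**Figure D1:**
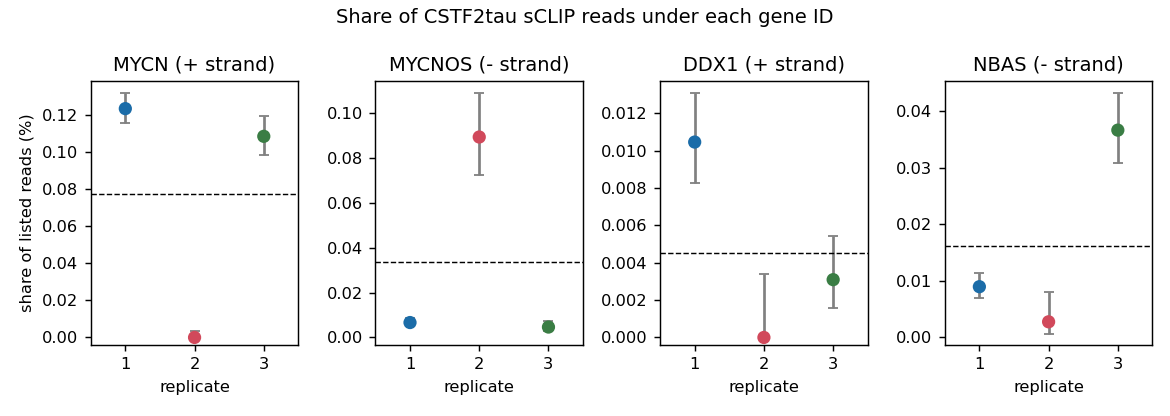
Share of all listed reads (%, linear axis from 0, own scale per panel) under MYCN, MYCNOS, DDX1 and NBAS in replicates 1, 2 and 3. Points are libraries, bars are 95% exact intervals and the dashed line is the mean; MYCN is at 0.123% and 0.108% in replicates 1 and 3 and at 0 in replicate 2, where MYCNOS is at 0.0895%.

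The next comparison asked which of these differences between libraries exceeded counting error. Each pair of replicates was compared for every gene ID by a two-sided Fisher exact test on reads, adjusted over all gene IDs and pairs by the Benjamini-Hochberg method. Such calls were common: 39.1% of gene IDs were called between replicates 2 and 1, 54.2% between replicates 3 and 1, and 49.3% between replicates 3 and 2. A call by itself therefore says little about these genes, and the test compares libraries, not conditions. Of the 12 member pairs, 8 were called.

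MYCN was 44.5-fold lower in replicate 2 than in replicate 1 (Fisher's exact test, adjusted p = 2.7e-52), with the 0 in replicate 2 set to 3 reads. A fold set in this way is not a lower bound. Replicate 3 was 39.1-fold above replicate 2 by the same rule (Fisher's exact test, adjusted p = 1.7e-43). Replicates 3 and 1 differed by 0.879-fold for MYCN, which did not pass (Fisher's exact test, adjusted p = 0.061). Their order for MYCN turned round with other settings: as a share of plus-strand reads only, replicate 3 exceeded replicate 1 by 0.0516 percentage points and was called. Replicate 3 is poor in plus-strand reads, as 63.2% of its nuclear reads were minus-strand reads, while replicate 1 had 48.8% and replicate 2 had 50.6%.

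MYCNOS was 13.4-fold higher in replicate 2 than in replicate 1 (Fisher's exact test, adjusted p = 1.3e-48). It was 0.0519-fold in replicate 3 relative to replicate 2 (Fisher's exact test, adjusted p = 6.5e-44), and replicates 3 and 1 did not differ at the threshold (Fisher's exact test, adjusted p = 0.28). With the peaks at or under the median p-value they were called, with replicate 3 lower by 0.0048 percentage points. NBAS was 4.08-fold higher in replicate 3 than in replicate 1 (Fisher's exact test, adjusted p = 2.9e-21) and 13.2-fold higher than in replicate 2 (Fisher's exact test, adjusted p = 8.6e-11). With shares of minus-strand reads only, both NBAS calls stayed, with 0.0398 and 0.0527 percentage points more in replicate 3. DDX1 was 3.78-fold lower in replicate 2, with its 0 set to 3 reads, than in replicate 1 (Fisher's exact test, adjusted p = 0.00022). It was 0.296-fold in replicate 3 relative to replicate 1 (Fisher's exact test, adjusted p = 5.4e-05), while replicates 3 and 2 were not called (Fisher's exact test, adjusted p = 0.14). The lists hold no peak under 3 reads, and that of replicate 2 was the shortest. The highest peak had 9 reads for DDX1 in replicate 1 and 7 for NBAS in replicate 3. At the smaller total of replicate 2 such peaks could fall below 3 reads and go unlisted, which the test does not allow for. How much this adds to the DDX1 and NBAS calls against replicate 2 was not tested.

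The 0 reads of MYCN in replicate 2 were set beside gene IDs with as many reads elsewhere. Among 54 gene IDs with at least the replicate 3 share of MYCN, 0.108%, in both replicates 1 and 3, only MYCN and ENSG00000237125 had no listed peak in replicate 2. ENSG00000237125 had 0.201% and 0.195% in replicates 1 and 3, and was named after its values were seen. Just below that threshold, ENSG00000197182, with 0.137% and 0.106%, also had none. Across the 54 the median share in replicate 2 was 0.213%, and the lowest value above 0 was 0.0203%. No peak of any other gene ID lay between the first base of MYCNOS and the last of MYCN in any replicate.

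Read against each other, MYCN outnumbered MYCNOS in replicates 1 and 3 only. MYCN had 18.5 times the reads of MYCNOS in replicate 1 (94.9% of the reads of both, 95% interval 93.3 to 96.2%) and 23.3 times in replicate 3 (95.9%, 93.6 to 97.5%). In replicate 2 all 97 reads were MYCNOS. The log2 ratio of MYCN to MYCNOS, with 0.5 reads added to each, was 4.20, -7.61 and 4.51, a mean of 0.37 ± 6.91 (SD, n = 3; exact two-sided sign-flip test, p = 1, smallest possible p 0.25). It was 4.35 without replicate 2, and below 0 without replicate 1 (-1.55) or replicate 3 (-1.71). The 2 genes did not share listed sequence: 0 minus-strand peaks lay within the span of MYCN, 0 plus-strand peaks within that of MYCNOS, and 656 nt separated the 2 spans.

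**Figure D2:**
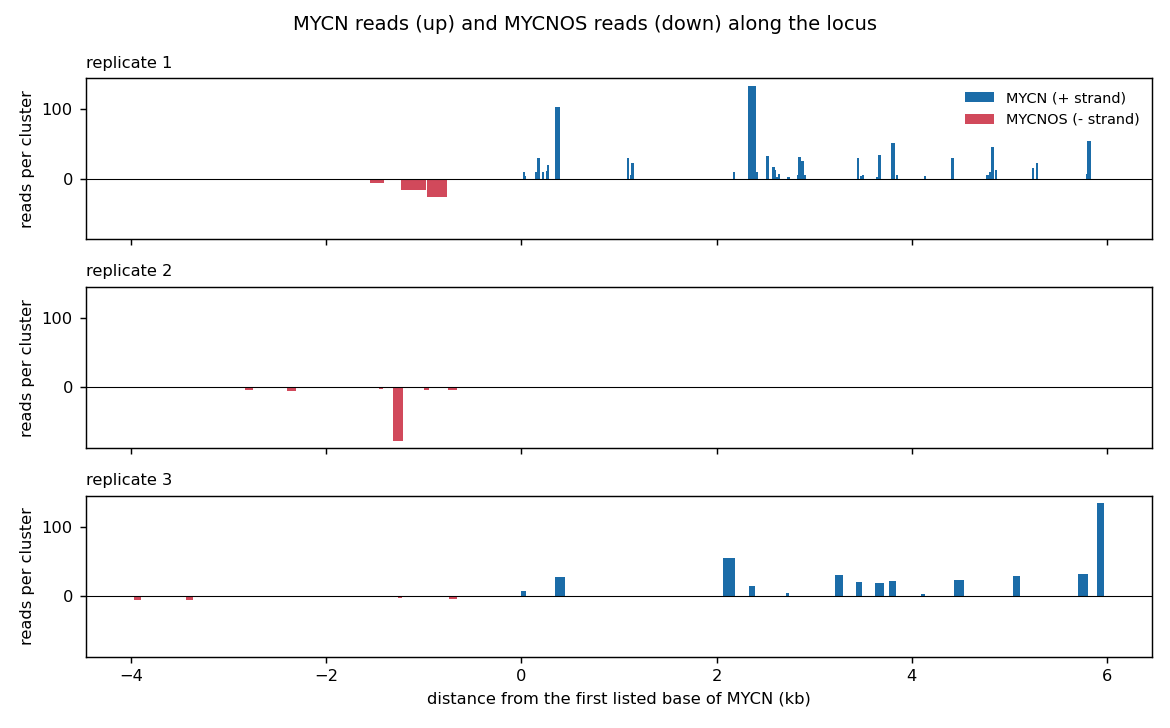
Reads per cluster of joined peaks in replicates 1, 2 and 3 against distance from the first listed base of MYCN (kb), with MYCN (plus strand) drawn up and MYCNOS (minus strand) drawn down; narrow clusters are drawn wider than they are so that they can be seen. MYCN has 907, 0 and 420 reads and MYCNOS 49, 97 and 18, and the highest MYCN bar of replicate 3, with 134 reads, is at the right end.

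The listed span of MYCN, from the first to the last peak, was chr2:16081233-16087202 (hg19, plus strand), 5970 nt. The span held 44 loci, which are peaks joined where they overlap or adjoin over all replicates. Of these, 10 were in both replicates 1 and 3, 30 in replicate 1 only and 4 in replicate 3 only. That put 22.7% in at least 2 replicates, against 8.65% of 178210 loci over all gene IDs. The loci in both held much of the signal, as 50.3% of the MYCN reads of replicate 1 and 48.6% of those of replicate 3 lay in clusters shared with the other.

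Among the 10 loci in both libraries, the highest by mean share, chr2:16083557-16083632 (76 nt), had 133 reads in replicate 1 and 15 in replicate 3. The next of the 10, chr2:16081580-16081680 near the 5′ end of the span, had 104 and 27 reads. At chr2:16086942-16087072, near the 3′ end, the counts were 61 and 32 and the shares 0.00829% and 0.00825%, the closest of the 5 named. The locus chr2:16083303-16083424 had 10 reads in replicate 1 and 55 in replicate 3, and chr2:16084995-16085068 had 51 and 21. Of these 10, 6 had the higher share in replicate 1 and 4 in replicate 3.

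The MYCN locus with the highest mean share of all, 0.0115%, was listed in replicate 3 only. It covered 67 nt at the 3′ end of the span, chr2:16087136-16087202, and held 134 reads, 31.9% of the MYCN reads of that library. The last MYCN peak of replicate 1 ended 63 nt before it. It falls outside the rule for named loci, which put loci in at least 2 replicates first, and was picked after its values were seen.

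MYCN peaks also differed in shape between the libraries. In replicate 1 all 107 MYCN peaks were under 20 nt, with a median width of 6 nt (range 2 to 17) and a median of 6 reads, and 62 neighbouring pairs adjoined with no gap. In replicate 3 the 16 peaks were 35 to 100 nt wide, with a median of 64.5 nt and of 20 reads. MYCNOS, DDX1 and NBAS had 1 peak under 20 nt among them. Of 2626 gene IDs with at least 10 peaks in replicate 1, 4 had only peaks under 20 nt, and of these 4 only MYCN is encoded in the nucleus. If a read counts in more than 1 adjoining peak, the 907 MYCN reads of replicate 1 are too many, and so are its MYCN shares, ratios and bins. Without peaks under 20 nt the mean MYCN share was 0.0364%, all of it from replicate 3, as replicate 1 then held no MYCN peak.

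CSTF2tau belongs to a factor that acts where transcripts are cleaved, so reads in the last 10% of each listed span (3′ end) were compared with those in the first 10% (5′ end). A call needed an exact binomial test on the summed reads to pass and the direction to be the same in every replicate with reads at the ends. Of 6365 gene IDs, 18.1% were called towards the 3′ end and 14.1% towards the 5′ end. Where the annotated transcripts end was not analysed here. NBAS was the 1 member called, towards the 5′ end.

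MYCN pointed in opposite directions in its 2 libraries. Replicate 1 had 61 reads in the 3′ window against 199 in the 5′ window, a log2 ratio of -1.70. Replicate 3 had 166 against 35, a log2 ratio of 2.23. The sums, 227 against 234, were nearly equal (log2 ratio -0.04; exact binomial test, adjusted p = 0.88). With replicate 1 left out, only replicate 3 held MYCN reads and the log2 ratio was 2.23. With replicate 3 left out, it was -1.24 and rested on replicate 1 alone, over its own shorter span. Directions could not disagree in either case, so neither shows agreement between libraries. Without the 134-read locus and with the span so shortened, the log2 ratio was -1.01 and called at the 5′ end (exact binomial test, adjusted p = 2.2e-09).

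The span was also cut into 10 equal bins, numbered from the 5′ end. The MYCN reads of replicate 1 were highest in bin 1, with 21.9%, and in bin 5, with 18.3%. Those of replicate 3 were highest in bin 10, with 39.5%, and in bin 4, with 16.7%. Bin 3 held no read in either library. Replicates 1 and 3 were alike in bin 4 (14.3% and 16.7%) and bin 7 (10.8% and 10.2%). Within bin 4 the positions differed: most reads of replicate 1 were at chr2:16083557-16083632, and most of replicate 3 at chr2:16083303-16083424.

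NBAS, the longest gene here, had sparse peaks over a listed span of 359775 nt, chr2:15329507-15689281 on the minus strand. Its 5′ end held more reads than its 3′ end in both libraries with reads at the ends. Replicate 1 had 8 reads in the 3′ window and 36 in the 5′ window, and replicate 3 had 11 and 42, log2 ratios of -2.10 and -1.89. Over both it was -2.01 (exact binomial test, adjusted p = 8.9e-09, lower at the 3′ end in 2 of 2 libraries), and an exact sign-flip test over 2 libraries cannot go below 0.5. With peaks counted in place of reads it was -1.83 and still called (exact binomial test, adjusted p = 0.029). Bin 1 held 54.5% of the NBAS reads of replicate 1 and 29.6% of those of replicate 3. Against this call stands the 14.1% of all gene IDs called the same way.

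**Figure D3:**
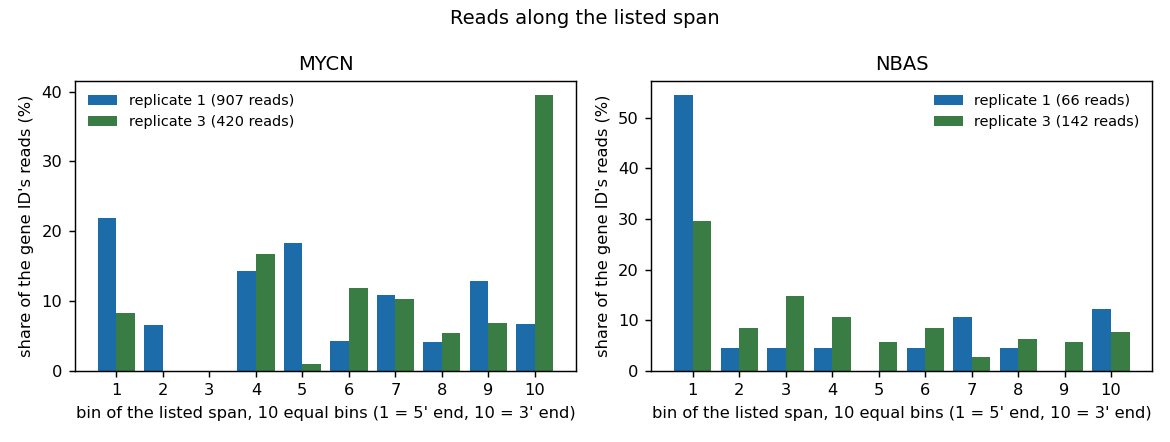
Share of the reads of MYCN (left) and NBAS (right) in each of 10 equal bins of the listed span, numbered 1 at the 5′ end to 10 at the 3′ end, for replicates 1 and 3 (linear axes from 0). For MYCN the tallest bar is bin 1 in replicate 1 (21.9%) and bin 10 in replicate 3 (39.5%); for NBAS it is bin 1 in both (54.5% and 29.6%).

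MYCNOS and DDX1 gave no call at their ends. The listed span of MYCNOS was 3315 nt, chr2:16077262-16080576 on the minus strand, in 7 loci. Its 3′ window held 0, 0 and 6 reads in replicates 1, 2 and 3, and its 5′ window 26, 8 and 4. These windows are set by the listed span. Their distance from the RefSeq starts of MYCNOS was not measured, as the builds differ. The direction differed in replicate 3, so the log2 ratio of -2.57 was not called despite an adjusted p of 5.0e-06 (exact binomial test). DDX1 spanned 39158 nt at chr2:15732036-15771193 on the plus strand and had 14 reads against 13, all from replicate 1.

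In replicates 1 and 2, but not in replicate 3, most MYCNOS reads lay in 1 locus of 546 nt. The locus chr2:16079921-16080466 was the only 1 of the 4 genes found in all 3 replicates, with 43, 81 and 3 reads. In replicate 2 a 102 nt peak within it, chr2:16079921-16080022, held 77 reads, 79.4% of the MYCNOS reads of that library. In replicate 1 the reads lay in a pair of peaks of 17 and 26 reads on the side nearer MYCN. The peak of 26 reads did not touch the 102 nt peak, so the locus joins separate positions. In replicate 3 the reads lay in a peak of 3 reads inside the 102 nt, 16.7% of the MYCNOS reads of that library. The next locus, chr2:16080484-16080576, had 0, 4 and 4 reads, and chr2:16079684-16079821 had 6, 3 and 0. A further pair of loci named by the rule were in replicate 2 only, chr2:16078832-16078919 with 5 reads and chr2:16078398-16078482 with 4. The 2 MYCNOS peaks farthest from MYCN were in replicate 3 only, with 6 and 5 reads, 33.3% and 27.8% of its MYCNOS reads.

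Positions of DDX1 and NBAS rarely recurred, and this was the rule in the lists. Over all gene IDs, 8.65% of 178210 loci were in at least 2 replicates, near the 6.67% of DDX1. DDX1 had 1 of 15 loci in more than 1 replicate, chr2:15746277-15746390, with 6 reads in replicate 1 and 3 in replicate 3. Its other named loci were in replicate 1 only, with 9 reads each at chr2:15737494-15737596 and chr2:15761277-15761358, 8 at chr2:15735633-15735685 and 7 at chr2:15736855-15736889. None of the 55 NBAS loci recurred. The largest by reads, chr2:15664934-15665032, had 13 reads in replicate 1, and the only NBAS peak of replicate 2, chr2:15564619-15564691, had 3. The other 3 named NBAS loci were in replicate 3, with 7 reads at chr2:15591605-15591684, 6 at chr2:15561421-15561482 and 5 at chr2:15392122-15392190.

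Counted by cluster, MYCN had 15 of 45 in replicate 1 that shared at least 1 nt and the strand with another replicate (33.3%, 95% interval 20.001 to 48.95%) and 10 of 14 in replicate 3 (71.4%, 41.9 to 91.6%). Over all gene IDs it was 14.7% in replicate 1 and 16.98% in replicate 3. MYCNOS shared 3 of 3, 4 of 6 and 2 of 4 clusters in replicates 1, 2 and 3. DDX1 shared 1 of 12 in replicate 1 and 1 of 4 in replicate 3. NBAS shared 0 of 17 in replicate 1 (upper bound 19.5%), 0 of 1 in replicate 2 and 0 of 37 in replicate 3 (upper bound 9.49%). Most NBAS clusters had under 5 reads, 16 of 17 and 31 of 37, a class in which 8.21% and 10.5% of all clusters of replicates 1 and 3 were shared. MYCN and MYCNOS reads are denser than most, and overlap was not matched on density.

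Per length of listed span, MYCN and MYCNOS stood near the top of the lists and DDX1 and NBAS did not. On the scale of RPM per kb (reads per kb of span, scaled to the listed total of the library), MYCN had 206, 0 and 181 in replicates 1, 2 and 3. Its mean was 129 ± 113 RPM per kb (SD, n = 3; 194 without replicate 2). MYCNOS had 20.1, 269.9 and 14.002 RPM per kb, with a mean of 101 ± 146 (17.04 without replicate 2 and 221 without replicate 3, where the listed span is shorter). These means ranked 9 and 14 among 7076 gene IDs with at least 5 loci. Within each library MYCN and MYCNOS lay far apart, with MYCN higher in replicates 1 and 3 and MYCNOS in replicate 2. Their means are therefore close only because the direction changed. DDX1 had 2.67, 0 and 0.790 RPM per kb (mean 1.15 ± 1.37, or 1.73 without replicate 2) and ranked 3987. Without replicate 1, its highest library, the DDX1 mean was 1.75. That value did not fall because the listed span was then taken from replicate 3 alone and was much shorter, chr2:15746277-15755100. NBAS had 0.249, 0.0769 and 1.02 RPM per kb (mean 0.448 ± 0.501, or 0.176 without replicate 3, where its listed span is shorter) and ranked 5930. It lay below DDX1 in replicate 1 and above it in replicates 2 and 3. The median of all such gene IDs was 1.34 RPM per kb. Spans start and end at listed peaks, so a gene with few peaks can have a short span and a high density. The adjoining peaks of MYCN in replicate 1 also enter this measure: without peaks under 20 nt its mean was 61.0.

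Together the 4 genes held 0.149%, 0.0922% and 0.153% of the listed reads of replicates 1, 2 and 3. The minus-strand genes MYCNOS and NBAS made up 10.5% of the reads of the 4 in replicate 1, 100% in replicate 2 and 27.0% in replicate 3. The library-wide minus-strand shares were 48.8%, 50.6% and 63.2%, and their part in the result was not tested.

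MYCN, MYCNOS and NBAS, but not DDX1, had higher mean shares than their neighbours on the chromosome, though not in every library. Between 12 and 19 Mb of chromosome 2, 23 gene IDs had a listed peak, some of them with the same coordinates as another. The 4 members held 72.8%, 64.5% and 73.8% of the reads of that window in replicates 1, 2 and 3. MYCN, MYCNOS and NBAS ranked 1 to 3 by mean share over the replicates and DDX1 ranked 8. In replicate 2, NBAS with 3 reads and DDX1 with 0 lay below neighbours with 18, 15, 8, 7 and 4 reads. The place of MYCNOS rests on that library. In replicate 1 MYCNOS (0.00666%) and NBAS (0.00897%) lay below ENSG00000071575 (0.0107%) and ENSG00000236289 (0.00951%). In replicate 3 MYCNOS (0.00464%) lay below ENSG00000163029 (0.0137%), ENSG00000227718 (0.00928%) and ENSG00000224400 (0.00645%). The window as a whole held 0.205%, 0.143% and 0.207% of the listed reads. The other 19 gene IDs had a median mean share of 0.000933%, against 0.00195% over all gene IDs, and 6 of them had reads in replicate 2.

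The highest neighbours that are not members were ENSG00000227718, ENSG00000071575 and ENSG00000163029, which the files do not pair with names. ENSG00000227718 (chr2:13865654-13896923, +) had 48, 18 and 36 reads, a mean share of 0.0108% ± 0.00521 (SD, n = 3). ENSG00000071575 (chr2:12857329-12882817, +) had 79, 15 and 12 reads, and ENSG00000163029 (chr2:17850966-17934239, -) had 33, 8 and 53. All 3 had reads in replicate 2, unlike MYCN and DDX1. The nearest listed gene ID beyond MYCN on the plus strand, ENSG00000236289 (chr2:16192084-16225246), had 70, 0 and 13 reads, close to the 77, 0 and 12 of DDX1.

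**Figure D4:**
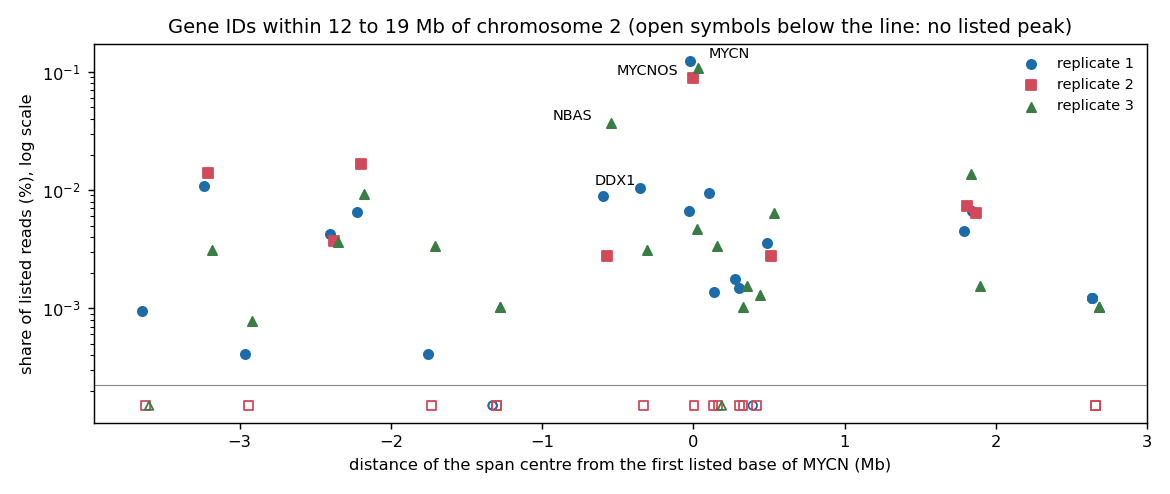
Share of listed reads (%, log axis) of the 23 gene IDs with a peak between 12 and 19 Mb of chromosome 2, against the distance of the centre of their listed span from the first listed base of MYCN (Mb). Each symbol is 1 library, and open symbols below the grey line mark a library with no listed peak; MYCN in replicates 1 and 3 and MYCNOS in replicate 2 are the highest points, at 0.123%, 0.108% and 0.0895%.

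The gene IDs nearest to each member in their pattern were found by the largest absolute difference in log2 share over the 3 replicates, among 7387 gene IDs with at least 20 reads. For MYCN it was ENSG00000197182 (chr22:46468611-46507651, +), with 1005, 0 and 412 reads and a difference of at most 0.15. For DDX1 it was ENSG00000131143 (chr16:85836559-85840596, +), with 82, 0 and 11 reads and a difference of at most 0.12. MYCNOS was matched less closely by ENSG00000264772 (chr17:7477464-7483007, +), with 61, 94 and 13 reads (0.45), and NBAS by ENSG00000121440 (chr3:73431779-73652106, -), with 54, 3 and 113 reads (0.33). Within 0.5 on this scale lay 2 gene IDs for MYCN, 1 for MYCNOS, 50 for DDX1 and 8 for NBAS. With 3 libraries this is a likeness of values only.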

How the data were processed

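The deposited data are 1 headerless peak list per replicate. The submitters' processing notes name hg19 as the build and FastQC, SAMtools, STAR and bedtools as tools, without versions. How peaks were called and assigned to genes is not given in the sources used here. Peaks carry the authors' own p-value, under 0.05 throughout, which served to filter peaks and to interpret their names. The deposited name of a peak ends in a whole number of at least 3, taken here as its count of reads. This interpretation comes from the values alone (Spearman correlation with p across peaks of -0.988, -0.973 and -0.964 in replicates 1, 2 and 3), and all read values depend on it.

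Gene IDs were read before the dot of the peak name. No ID matched the reference table, so lists of partner genes were not analysed here. The rule named the 4 members, up to 5 loci each, 3 neighbours and 1 gene ID of like pattern per member. Loci in at least 2 replicates came first, then those in 1, by mean share. The members and lists were chosen with earlier results of these data known. Fisher tests used gene IDs with at least 10 reads in a pair, and end tests those with at least 5 loci and 10 reads at the ends, with calls at an adjusted p below 0.05. Both tests were run on simulated data that held counting error only. The further spread between libraries seen here was not simulated, so those runs do not cover it. Reads in peaks are not independent molecules, and the labels do not say how the biological replicates were grown apart. Analyses used Python 3.11.15, pandas 2.3.3, NumPy 2.4.6 and SciPy 1.17.1.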

Additional observations from a re-analysis of the deposited data

How the results depend on the processing

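Alternatives were the 50% of peaks with the lowest p-values in each list (the better-p 50%), peaks with at least 5 reads, each replicate left out, other end windows, overlaps and denominators; those on narrow peaks, joined peaks and left-out loci were chosen after seeing the data. Of 160 alternative values, 126 kept their direction and side of the threshold or stayed within 1 SD of the replicates (1.5 times for counts). That SD is wide for shares and for reads per kb. The MYCNOS share of 0.0336%, for 1, counted as kept at 0.00565% without replicate 2. The ratio of MYCN to MYCNOS could change in direction only, as its test cannot reach the threshold. No paired analysis was possible because there is 1 group. The cause of the changes below was not tested.

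The MYCN end ratio (-0.04) was 0.0066 with the better-p 50% of peaks and with peaks of at least 5 reads, 0.34 with the outer 20% of the span, 2.58 with the outermost locus, and -1.01 without the 3′-most locus; leaving out replicates gave -1.24 to 2.23. The DDX1 end ratio (0.10) was -1.30 with the better-p 50% of peaks, -0.36 with peaks of at least 5 reads and -1.02 with the outer 20%. The NBAS end ratio stayed below 0 and called in each alternative in which it could be tested. It was -2.10 to -1.89 with replicates left out, though without replicate 1 or 3 it rested on 1 library. MYCN in replicate 3 minus replicate 1 was 0.0171 percentage points with the better-p 50% of peaks, 0.0523 with peaks of at least 5 reads and 0.0516 on the same strand, against -0.0149. The mean log2 ratio of MYCN to MYCNOS ranged over -1.71 to 4.35 with replicates left out.

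Calls towards the 3′ end (1155) and the 5′ end (896) over all gene IDs numbered 731 and 586 with the better-p 50% of peaks, 218 and 225 with peaks counted, and 164 and 66 with the outermost locus; 576 were called at the 5′ end with peaks of at least 5 reads. With replicates left out they ranged from 617 to 1163 and from 538 to 1048. Mean shared clusters of MYCNOS (72.2%) were 44.4% with the better-p 50% of peaks and with an overlap of 50% of the shorter cluster, 27.8% with peaks of at least 5 reads, and 29.2 to 75.0% with replicates left out. Those of DDX1 (16.7%) were 0 with these 3 settings and 0 to 16.7% with replicates left out, and those of MYCN (52.4%) 0 to 52.4%. MYCN and DDX1 had peaks in replicates 1 and 3 only, so without either library their value had to be 0. DDX1 was likewise left in replicate 1 only with the better-p 50% of peaks and with peaks of at least 5 reads. The window of 14 to 17 Mb held 13 gene IDs.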
